A study of Mus musculus with 6 samples.

Results

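The Notch genes examined here were 4 receptors (Notch1, Notch2, Notch3 and Notch4), 2 Jagged ligands (Jag1 and Jag2) and 4 target transcription factors (Hes1, Hey1, Hey2 and Heyl). They were taken by gene symbol from a deposited table of 20199 genes, and all 10 were present and passed the filter on low counts. The libraries were bulk RNA sequencing of smooth muscle cells of the aorta, the cells whose contraction sets arterial tone, taken from C57B6 mice aged 12 weeks. The 3 knockout libraries had the genotype miR-21fl/flmTmG/Myh11ERT2 and the group label miR21 -/-. The 3 wild-type libraries had the genotype WT/mTmG/ Myh11ERT2 and the group label control. Both genotypes thus carried mTmG, a fluorescent reporter of Cre activity, and Myh11ERT2, an inducible driver under the smooth muscle myosin gene, so any deletion was limited to cells in which that gene is active. The labels state neither whether the inducer was given nor whether every library stands for a separate animal. The p-values measure only the spread between these libraries, which may be partly technical. The comparison asks how the genes of this pathway differ between libraries labelled as lacking miR-21, a microRNA of the vessel wall, and control libraries. No value given here shows the loss of miR-21 itself.

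Notch signalling passes between touching cells. A ligand of the Jagged or Delta-like family on one cell binds a Notch receptor on its neighbour, proteases then free the receptor's inner part, and this part enters the nucleus and joins the DNA-binding protein Rbpj to switch on repressors of the Hes and Hey families. In arteries, Notch3 is the receptor best known from smooth muscle, where the Jag1 ligand on endothelial and neighbouring muscle cells helps smooth muscle to mature, and inherited changes of human NOTCH3 cause a small vessel disease of the brain. Notch4 is mainly known from endothelium.

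Stretches that could pair with miR-21 were searched for by sequence alone. A microRNA pairs mainly through its seed, and a site of 8 bases (8mer) matches bases 2 to 8 of the microRNA and adds an A. Jag1 and Notch2 each held an 8mer in the 3′ untranslated region (UTR), which is why their sites are shown. The longest annotated 3′ UTR of each gene was searched in the sense direction for ATAAGCTA (8mer), ATAAGCT and TAAGCTA (7mers) and TAAGCT (6mer), of which the shorter ones lie within the longer. The mature microRNA is from RefSeq (GRCm38.p6, minus strand of chr11:86584120-86584141), with its seed in capitals. The sites are from GENCODE vM1 transcripts, with the match in capitals.
miR-21a-5p: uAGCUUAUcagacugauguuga
Jag1: tagggagtattctcATAAGCTAgttgaata
Notch2: ggaatgtccaagaaATAAGCTAacttgctc
Heyl: tccccaccggaacgTAAGCTcaatgagg
Notch4: gccaaaataaccgtTAAGCTcacttgtc

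The Jag1 site lay at bases 1279 to 1286 of a 3′ UTR of 1568 bases, and the Notch2 site at bases 918 to 925 of 2923. Heyl and Notch4 held a 6mer only, and Notch1, Notch3, Jag2, Hes1, Hey1 and Hey2 held none of these letters in the sequence searched, which for Jag2 was only 299 bases. Among 11009 tested protein-coding genes with a 3′ UTR in that annotation, 2.16% held an 8mer and 25.7% a 6mer or longer. A match describes the letters and does not show that the microRNA binds there.

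The preparation carried a strong smooth muscle signature, with all 10 smooth muscle markers detected and a summed level of 47270 to 48220 CPM (counts scaled to library size) in knockout and 45470 to 51960 CPM in wild type. Acta2 and Myh11 were the highest of them. Of the endothelial markers, Cdh5 was at most 0.584 CPM and Kdr at most 0.605 CPM in any library. Esam and Erg, the highest of that list, were at 32.6 to 63.8 CPM, and Pecam1 was at 29.3 to 42.0 CPM. The 14 endothelial markers summed to 122.5 to 156.8 CPM in knockout and 120.8 to 141.2 CPM in wild type. Adventitial fibroblast markers summed to 4517 to 5855 CPM in knockout and 5403 to 6612 CPM in wild type. Col3a1 and Col1a1 held most of that sum. Dcn averaged 58.7 CPM in knockout and 56.8 CPM in wild type, and Lum 38.45 CPM in knockout and 37.8 CPM in wild type. Pdgfra averaged 15.1 CPM in knockout and 11.85 CPM in wild type. It was at 4.04 CPM in wild-type replicate 1 but at 15.15 and 16.35 CPM in wild-type replicates 2 and 3. Of the 9 fibroblast markers, the fitted mean was higher in knockout for 5 and lower for 4. Pericyte markers summed to 3180 to 3470 CPM in knockout and 2590 to 3506 CPM in wild type. Cspg4 and Rgs5 held most of that sum. Abcc9 was at 137.9 to 405.2 CPM and Kcnj8 at 43.8 to 54.6 CPM, while Higd1b was at most 0.350 CPM in any library. Such sums do not give shares of cells. Macrophage markers summed to 1.48 to 8.26 CPM in knockout and 3.98 to 8.40 CPM in wild type. Library totals ran from 17216701 to 27568002 counts in knockout and from 17123748 to 28610649 counts in wild type. Wild-type replicate 1 stood apart on the first principal component, which held 40.6% of the variance. Its levels also depended on transcript length. The 8244 genes with a known length and a mean of at least 10 CPM were cut into 10 equal length groups. These ran from 1 for the shortest transcripts to 10 for the longest. Jag2, Hey1 and Notch4 lay below that level and are set beside the medians of more abundant genes. In length group 1 its log2 CPM lay a median of 0.35 above each gene's mean over the 6 libraries, and in length group 9 (5173 to 6654 bases) a median of −0.28. The other 5 libraries lay between −0.13 and 0.15 in every length group. From length group 1 to 10, knockout replicate 1 rose from −0.13 to 0.15 and knockout replicate 2 from −0.08 to 0.10. Wild-type replicate 3 rose less, from −0.07 to 0.04, and knockout replicate 3 and wild-type replicate 2 stayed between −0.03 and 0.05. Leaving out wild-type replicate 1 thus does not remove every length trend. This touches the long Notch and Jagged transcripts, so results are also given without that library.

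No Notch gene was called different between the genotypes. In edgeR's quasi-likelihood test across 15185 genes, 0 of the 10 genes had an adjusted p under 0.05, against 0% of all genes tested. Limma voom called 0 of the 10 as well. DESeq2 also called 0 of the 10, where it called 0.473% of the genes with an adjusted p. At an unadjusted p under 0.05 edgeR listed 1 of the 10, Hey1, against 6.29% of all genes. The fitted mean was higher in knockout for 7 genes and lower for 3, with a median log2 fold change of 0.06, where the median of all genes was 0.00. The knockout libraries all lay above the wild-type libraries for Hey1 and Notch2, and 6.95% of all genes showed that separation. No member showed the opposite one, which 7.57% of all genes did.

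**Figure D1:**
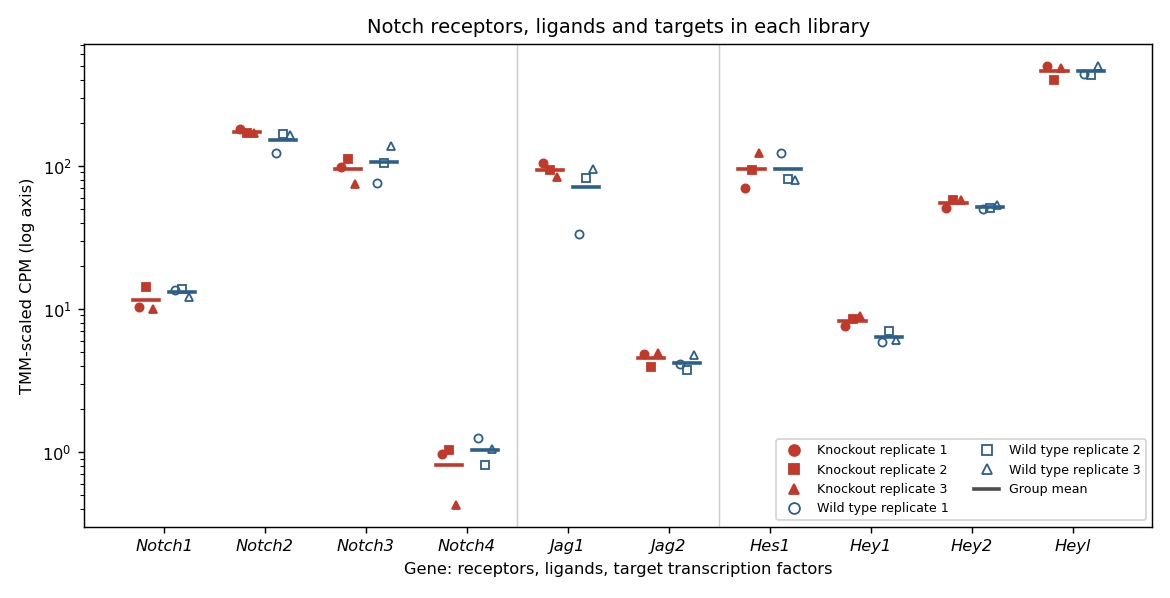
Level of each Notch gene in each library, as TMM-scaled CPM on a log axis, with knockout filled and left, wild type open and right, and bars at group means. Heyl was the highest gene in every library and Notch4 the lowest, and wild-type replicate 1 (open circle) had the lowest Jag1 level, 33.4 CPM.

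Levels of different genes were set side by side per length, as CPM per kilobase of exon. Heyl stood highest, at 90.1 ± 10.6 CPM per kilobase in knockout and 89.2 ± 6.96 in wild type (SD, n = 3 each). Hes1 followed, at 46.7 ± 12.9 in knockout and 46.3 ± 12.1 in wild type, and then Hey2, at 21.6 ± 1.60 in knockout and 20.1 ± 0.709 in wild type. The ranges of these 3 genes over the 6 libraries did not overlap. Notch2, Jag1 and Notch3 came next, with ranges over the 6 libraries that overlapped. Notch2 averaged 16.5 ± 0.580 in knockout and 14.4 ± 2.42 in wild type, Jag1 16.1 ± 1.70 in knockout and 12.1 ± 5.63 in wild type, and Notch3 11.8 ± 2.33 in knockout and 13.2 ± 3.81 in wild type. Notch2 lay above Jag1 in 3 of 6 libraries, and Jag1 above Notch3 in 4. Notch2 lay above Notch3 in every library but wild-type replicate 3, where it was at 15.67 against 17.11 for Notch3. Hey1 was lower, at 3.76 ± 0.299 in knockout and 2.87 ± 0.274 in wild type. Jag2 and Notch1 were near 1 CPM per kilobase with overlapping ranges, and Notch4 was at 0.1004 ± 0.0412 in knockout and 0.129 ± 0.0270 in wild type. The order of Jag2 and Notch1 turns round with the length of the longest transcript in place of all exons, since Notch1 has 14232 exonic bases but a longest transcript of 9488.

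Notch2 and Notch3 made up most of the receptor transcripts of these cells. Of the summed level per kilobase of the 4 receptors, Notch2 took 56.8% ± 5.09 in knockout and 50.6% ± 3.63 in wild type, and Notch3 40.1% ± 4.70 in knockout and 45.6% ± 4.42 in wild type (SD, n = 3 each). Notch1 took 2.77% ± 0.428 in knockout and 3.33% ± 0.884 in wild type, and Notch4 0.337% ± 0.118 in knockout and 0.473% ± 0.196 in wild type. The ranges of the genotypes overlapped for Notch2 and Notch3, with Notch3 at 35.3% to 44.6% in knockout and 42.7% to 50.7% in wild type. In such bulk samples fewer cells of a type and less RNA per cell cannot be told apart.

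Among the receptors, Notch2 (chr3:98013527-98150361, plus strand, mm10) was at 180.3, 168.8 and 170.9 CPM in knockout replicates 1 to 3, and at 122.2, 167.7 and 164.6 CPM in wild-type replicates 1 to 3. The groups did not overlap, but 2 of the 3 wild-type libraries lay within 5 CPM of the lowest knockout library and only wild-type replicate 1 lay far below. The log2 fold change was 0.19 ± 0.14 SE with a 95% interval of −0.13 to 0.51 (edgeR adjusted p = 0.782). Without wild-type replicate 1 it was 0.06 ± 0.09, with an interval of −0.13 to 0.25. In that library Notch2 lay 0.40 below its own mean on the log2 scale, where genes of its length group had a median of −0.24. With a per-library trend on transcript length taken into account, the log2 fold change was 0.07.

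Notch3 (chr17:32120820-32166880, minus strand) was at 97.7, 111.6 and 74.5 CPM in knockout replicates 1 to 3, and at 76.4, 105.1 and 137.6 CPM in wild-type replicates 1 to 3. The groups overlapped across most of their range, and the highest wild-type library was 1.80 times the lowest. The log2 fold change was −0.17 ± 0.22 SE, with a 95% interval of −0.67 to 0.33 (edgeR adjusted p = 0.854). It was −0.36 without wild-type replicate 1 and 0.06 without wild-type replicate 3, so its sign depended on the library left out. With the length trend taken into account it was −0.30 ± 0.17, with an interval of −0.68 to 0.09. Closest to its profile over the 6 libraries were Amotl2, Plce1 and Klhl2, out of 8647 protein-coding genes with a mean of at least 10 CPM. Their centred log2 CPM differed from that of Notch3 by a root mean square of 0.091, 0.094 and 0.121, where Notch3 itself varied by 0.31.

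Notch1 (chr2:26457903-26516663, minus strand), the receptor best known from endothelium and blood cell development, was at 10.3, 14.3 and 9.97 CPM in knockout and 13.5, 13.8 and 12.0 CPM in wild type. The groups overlapped through knockout replicate 2, the highest of the 6 libraries, and the log2 fold change was −0.18 ± 0.17 SE (95% interval −0.58 to 0.21, edgeR adjusted p = 0.807). It was −0.37 without knockout replicate 2, −0.09 without knockout replicate 3 and −0.33 with the length trend. Notch4 (chr17:34564268-34588503, plus strand) had 17, 23 and 12 counts in knockout and 21, 16 and 30 in wild type, which is 0.427 to 1.03 CPM in knockout and 0.814 to 1.25 CPM in wild type. At this depth its log2 fold change of −0.38 ± 0.44 SE had an interval of −1.36 to 0.61, the widest of the 10 genes (edgeR adjusted p = 0.835). It was −0.61 without knockout replicate 2, −0.05 without knockout replicate 3 and −0.24 without wild-type replicate 1. The deposited counts of Notch1, Notch2 and Notch3 were not whole numbers, and why was not tested. Notch1 and Notch3 also overlap a listed gene on the opposite strand, and Notch2 overlaps 2 on its own strand, which makes these counts uncertain.

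Of the ligands, Jag1 (chr2:137081456-137116644, minus strand) was at 103.9, 94.1 and 84.1 CPM in knockout replicates 1 to 3, and at 33.4, 82.8 and 95.6 CPM in wild-type replicates 1 to 3. Wild-type replicate 1 was the low library by far, and wild-type replicates 2 and 3 lay among the knockout values or within 2 CPM of them. The log2 fold change of 0.41 ± 0.32 SE had a 95% interval of −0.31 to 1.13 (edgeR adjusted p = 0.785; 2-sided exact permutation over libraries, p = 0.30, whose smallest possible value with 3 libraries a group is 0.1). Without wild-type replicate 1 it was 0.07 ± 0.11, with an interval of −0.17 to 0.32, while it was 0.69 without wild-type replicate 3 and 0.54 without wild-type replicate 2. In wild-type replicate 1 Jag1 lay 1.21 log2 units below its mean, more than the 0.28 by which the median gene of its length group lay below. Taking the length trend into account left a log2 fold change of 0.33 ± 0.26. What set that library's Jag1 level apart was not tested.

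The genes whose profiles were closest to that of Jag1 were picked by their match over all 6 libraries. Their low value in wild-type replicate 1 therefore follows from that choice. Tgfbr1, the type I TGF-beta receptor gene, was at 272.6, 248.9 and 207.9 CPM in knockout and 89.0, 201.5 and 223.8 CPM in wild type, a root mean square difference of 0.069 from Jag1 over the 6 libraries. Edem3, which acts in disposal of misfolded glycoproteins, and Sema3c, a secreted guidance factor, followed at 0.084 and 0.085, where Jag1 itself varied by 0.55. Jag2 (chr12:112907819-112929776, minus strand) was low, at 4.84, 3.91 and 4.91 CPM in knockout and 4.10, 3.76 and 4.73 CPM in wild type. Its groups overlapped almost fully, with a log2 fold change of 0.11 ± 0.21 SE (95% interval −0.35 to 0.58, edgeR adjusted p = 0.894), and it ran from 0.05 to 0.21 over the fits that left out 1 library each.

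Among the target factors, Hey1 (chr3:8663359-8667256, minus strand), a repressor of the Hey family active in arterial development, had the smallest p of the 10 genes. It was at 7.57, 8.44 and 8.86 CPM in knockout replicates 1 to 3 and at 5.89, 7.02 and 6.09 CPM in wild-type replicates 1 to 3. Every knockout library was above every wild-type library, on 133 to 249 counts in knockout and 99 to 174 in wild type. The log2 fold change was 0.39 ± 0.16 SE, with a 95% interval of 0.02 to 0.76 before adjustment. It did not pass over all genes (edgeR unadjusted p = 0.0409, adjusted p = 0.778), and its p ranked 790 among the 15185 genes. The value was 0.34 to 0.48 over the fits that left out 1 library each, and 0.45 with the length trend. It was 0.35 without wild-type replicate 1, with an interval of −0.03 to 0.73.

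Heyl (chr4:123233556-123249875, plus strand), a Hey factor known as a Notch3 target in mural cells, was at 498.9, 398.7 and 483.7 CPM in knockout and 439.4, 432.0 and 497.1 CPM in wild type. The groups overlapped fully, and the log2 fold change of 0.01 ± 0.13 SE had a 95% interval of −0.28 to 0.31 (edgeR adjusted p = 0.983). Its profile varied by only 0.12 over the 6 libraries, and the closest profiles were those of Sugt1, Zmym3 and Dhx37, at root mean square differences of 0.037, 0.041 and 0.045. Hey2 (chr10:30832359-30842801, minus strand), a repressor important in heart and aorta development, was at 50.3, 57.3 and 57.5 CPM in knockout and 49.5, 50.9 and 53.1 CPM in wild type. One knockout library lay within the wild-type range and the others above it, with a log2 fold change of 0.11 ± 0.11 SE (95% interval −0.14 to 0.35, edgeR adjusted p = 0.824). It was 0.07 without knockout replicate 3 and 0.17 without knockout replicate 1.

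Hes1 (chr16:30064384-30067796, plus strand), a short-lived repressor whose own product shuts it off, spread widely within both genotypes. It was at 70.0, 92.9 and 122.4 CPM in knockout replicates 1 to 3 and at 122.6, 80.6 and 79.5 CPM in wild-type replicates 1 to 3. The highest library of each genotype was at almost the same level, and the log2 fold change was 0.02 ± 0.23 SE with a 95% interval of −0.51 to 0.54 (edgeR adjusted p = 0.991). It ranged from −0.21 without knockout replicate 3 to 0.25 without wild-type replicate 1, and was 0.14 with the length trend. In wild-type replicate 1 Hes1 lay 0.41 above its mean on the log2 scale, where its length group had a median of 0.20. The 17 immediate early genes, which respond quickly to cell handling, summed to 20600, 35750 and 30690 CPM in knockout and 39290, 29480 and 33750 CPM in wild type. The fitted mean in knockout was lower for 16 of these 17 genes and higher for 1, and 0 were called in edgeR or DESeq2. Their median log2 fold change was −0.24. Of all 15185 genes tested, 7614 were lower, with a median of 0.00. The sum and the Hes1 level were both lowest in knockout replicate 1 and both highest in wild-type replicate 1. Knockout replicate 2, however, had a higher sum and a lower Hes1 level than knockout replicate 3. Wild-type replicate 3 likewise had a higher sum and a slightly lower Hes1 level than wild-type replicate 2. The part of the immediate early genes in the Hes1 values was not tested.

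**Figure D2:**
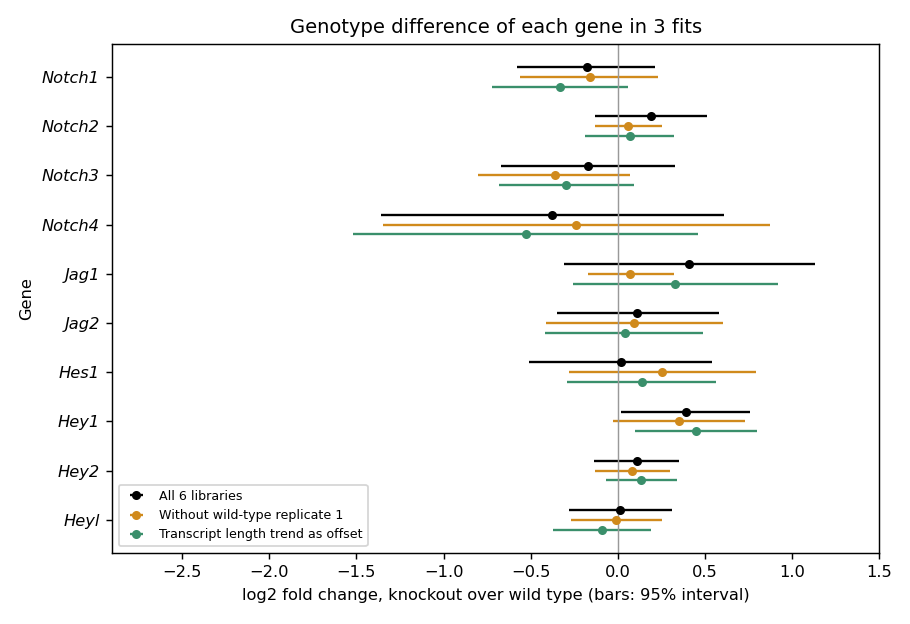
Log2 fold change of each Notch gene, knockout over wild type, with 95% intervals, in edgeR fits of all 6 libraries, without wild-type replicate 1, and with a per-library transcript length trend. The Jag1 interval spans −0.31 to 1.13 with all libraries and −0.17 to 0.32 without wild-type replicate 1, and Hey1 is at 0.35 or above in each fit.

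**Figure D3:**
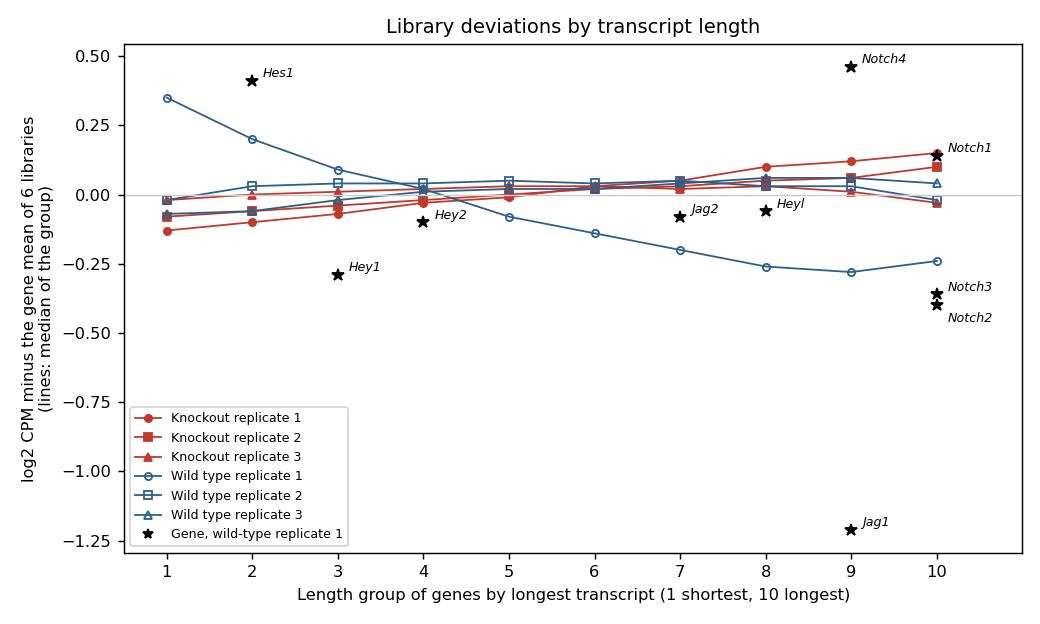
Median deviation of log2 CPM from each gene's mean over the 6 libraries, by 10 groups of genes ordered by longest transcript, for each library. Stars give the deviation of each Notch gene in wild-type replicate 1, whose line lies at 0.35 in length group 1 and −0.28 in length group 9, with Jag1 far below it at −1.21.

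The rest of the pathway was read from a list of 52 genes, of which 49 were in the table and 42 were tested. In edgeR 0 of the 42 were called in either direction, and DESeq2 called 0, while edgeR listed 2 at an unadjusted p under 0.05, against 6.29% of all genes. The fitted mean was higher in knockout for 21 and lower for 21, with a median log2 fold change of 0.00, the same as over all genes. Groups did not overlap for 4 genes higher in knockout (Maml3, Rbpj, Kat2b and Dtx1), against 6.95% of all genes, and for 1 lower (Neurl1b, a ubiquitin ligase gene under 1 CPM), against 7.57%.

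The Delta-like ligands were scarce. Dll1, a Delta-like ligand, was at 1.195, 0.763 and 1.07 CPM in knockout and 0.773, 1.53 and 2.73 CPM in wild type, with a log2 fold change of −0.76 ± 0.47 SE (edgeR adjusted p = 0.778). Dll4, the arterial endothelial ligand, did not pass the filter and was at most 0.249 CPM in any library. Of the Jagged and Delta-like ligands tested here, Jag1 was the one measured above 5 CPM.

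The cleavage genes, which encode Adam proteases and gamma-secretase, were all tested, with 5 of 9 higher and 4 lower and a median log2 fold change of 0.01. In the nuclear complex, Rbpj was at 86.9, 69.0 and 76.9 CPM in knockout and 48.9, 68.2 and 67.0 CPM in wild type. The groups did not overlap, by less than 1 CPM, and the log2 fold change was 0.34 ± 0.16 SE (edgeR unadjusted p = 0.0591, adjusted p = 0.778). Wild-type replicate 1 was the lowest library by far, and no value without it is given for Rbpj. Maml3, a coactivator that binds the Notch and Rbpj complex, was at 7.34, 9.97 and 10.1 CPM in knockout and 6.12, 6.76 and 4.45 CPM in wild type. It had the smallest p of the list, with a log2 fold change of 0.67 ± 0.21 SE (edgeR unadjusted p = 0.0122, adjusted p = 0.719).

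Genes of ubiquitin ligases followed. Dtx1, a Deltex protein that regulates the receptor and a known Notch target in lymphocytes, was at 7.23, 8.49 and 7.97 CPM in knockout and 5.59, 6.15 and 5.36 CPM in wild type. All knockout libraries were above all wild-type libraries, with a log2 fold change of 0.47 ± 0.17 SE (edgeR unadjusted p = 0.0185, adjusted p = 0.775). Itch, a ligase that marks Notch for degradation, was at 98.1, 81.5 and 74.8 CPM in knockout and 40.3, 66.7 and 75.5 CPM in wild type, with a log2 fold change of 0.48 ± 0.22 SE (edgeR unadjusted p = 0.0571). The groups overlapped, and wild-type replicate 1 was again the lowest library.

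**Figure D4:**
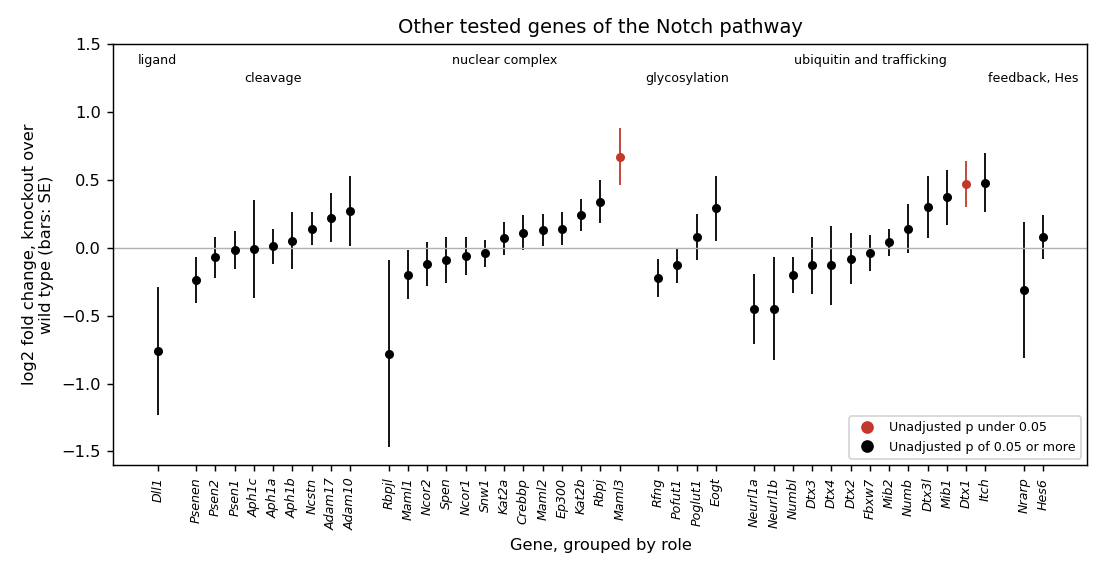
Log2 fold change with its SE, knockout over wild type, of the 42 other tested Notch pathway genes, grouped by role and coloured by unadjusted p. Maml3 at 0.67 and Dtx1 at 0.47 are the 2 genes with an unadjusted p under 0.05, and 21 genes lie on each side of 0.

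Sites for miR-21 were also counted in this list. Of 40 tested pathway genes with a 3′ UTR in the annotation, 1 held an 8mer and 3 held a 7mer. Among the 11009 tested protein-coding genes with a 3′ UTR, 2.16% held an 8mer and 12.0% a 7mer or 8mer. The 8mer gene was Ncor1, a corepressor, at 146.6 to 163.7 CPM in knockout and 143.3 to 193.8 CPM in wild type, with overlapping groups and a log2 fold change of −0.06. The 7mer genes were Rbpj (0.34), Kat2b (0.24), a histone acetyltransferase gene, and Psenen (−0.24), a gamma-secretase subunit gene, each given as a log2 fold change. None of these was called. In wild-type replicate 1 Rbpj and Kat2b had their lowest level of the 6 libraries, and Ncor1 and Psenen their highest.

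Genes reported to respond to Notch in mural cells differed in direction. Of 12 such genes, among them Notch3, Jag1, Heyl and Hes1, the fitted mean in knockout was higher for 6 and lower for 6, and 0 were called in edgeR or DESeq2, with 2 at an unadjusted p under 0.05 in edgeR, against 6.29% of all genes. Cnn1, the calponin gene of contractile smooth muscle, was at 2512, 2680 and 2647 CPM in knockout and 3698, 3252 and 2828 CPM in wild type, with all knockout libraries below all wild-type libraries, a separation that 7.57% of all genes showed (log2 fold change −0.32, edgeR unadjusted p = 0.0459). Efnb2, the ephrin ligand gene of arteries, was at 50.8, 68.3 and 66.0 CPM in knockout and 89.95, 61.1 and 101.3 CPM in wild type, with overlapping groups (−0.45, edgeR unadjusted p = 0.0488). Pdgfrb, the receptor gene of mural cell growth, was at 496.4, 416.8 and 478.2 CPM in knockout and 275.6, 379.3 and 436.8 CPM in wild type, with overlapping groups (0.35, edgeR unadjusted p = 0.0755). Wild-type replicate 1 was the lowest library for Pdgfrb and the highest for Cnn1.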

How the data were processed

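The deposited values are expected counts for each gene, not scaled between libraries; this was read from the values, of which 65.4% lay within 0.01 of a whole number. Per the submitters' processing notes, STAR 2.6 and DESeq2 were used with build mm10, and no source used here names the counter or its strand setting. Per the labels' protocols, libraries were made from total RNA with an Illumina TruSeq kit. The most common single difference between the deposited stop and the RefSeq gene end was 1 base, in 4672 of 17005 genes compared, and gene ends are printed with 1 base removed on that basis.

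Expected counts were rounded, genes kept with filterByExpr (15185 of 20199) and libraries scaled with TMM factors. Genotypes were compared 2-sided with glmQLFit and glmQLFTest of edgeR 4.0.16 (robust=TRUE, R 4.3.3), and p-values were adjusted by Benjamini-Hochberg across all tested genes, with 0.05 as the threshold. The SE is the absolute log2 fold change over the square root of F. Tests were checked on simulated data. Alternatives used DESeq2 1.42.0, limma 3.58.1 voom, other scalings and filters, a replicate block, left-out libraries and a transcript length offset (a lowess trend per library, for the 83.0% of tested genes with a GENCODE vM1 length), which was chosen after seeing the data. Exon lengths and 3′ UTRs came from GENCODE vM1, built on NCBIM37, and gave no coordinates; 88.7% of tested protein-coding genes had a UTR there.

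The genes and lists were chosen with earlier results of these data known. Named were all 10 Notch genes; the 4 other pathway genes with the smallest p, with Dll1, Dll4 and Rbpj; the 3 further response genes with the smallest p; the highest and defining markers; and the 3 closest profiles of Notch3, Jag1 and Heyl (log2 CPM, prior count 2). Pathway genes with a site of 7 bases or more were named by that site. Some further fibroblast and pericyte markers were also named.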

Additional observations from a re-analysis of the deposited data

How the results depend on the processing

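In edgeR 0 of 10 Notch genes, 0 of 42 other pathway genes and 0 of 12 response genes were called. These counts stayed at 0 under the 15 alternatives run, which tested from 12605 to 20198 genes. The response list shares genes with the other lists. Over all genes the count of 0 became 69 with DESeq2. It ran from 0 to 9 over the fits that left out 1 library each, with 9 without wild-type replicate 1 and 1 without wild-type replicate 2. In every other alternative it stayed at 0, so a count of 0 in a list says little about its genes there. Heyl had a log2 fold change of −0.09 with the length offset, and over the left-out libraries it ran from −0.05 to 0.11, Hes1 from −0.21 to 0.25 and Notch3 from −0.36 to 0.06. Those sign changes lie within the intervals of the fits, and their cause was not tested. The unadjusted p of Hey1 was above 0.05 in 4 of the 6 fits without 1 library (0.0703 to 0.132) and with the replicate block (0.0915). The labels give both genotypes replicate numbers 1 to 3. Same-numbered libraries did not deviate together (correlations of −0.27, −0.18 and −0.08), so the numbers were not taken as pairs, and the replicate block left 0 genes called and 572 in place of 955 at an unadjusted p under 0.05. When libraries were scaled by their totals alone, the median of all genes moved to 0.04. Low counts limit Notch4, which had no value under a minimum mean of 1 CPM. Simple counting intervals were not used, since the spread between libraries was larger than counting noise for all pairs of libraries (chi-square per gene between 14 and 98.2).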
